A study of Mus musculus with 32 samples.

Results

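Kit and Kitl, the 2 genes described here, encode a receptor and its ligand. They are 2 of the 20660 named genes that the arrays measured, and each was read by 1 probe, A_66_P128434 for Kit and A_55_P2001494 for Kitl, matched by the RefSeq transcript that the scanner output lists for it. The pair was chosen by its measured levels over the sample groups and cultures of this same series, so these levels and their differences are given as a description, with no test. Tests were kept for other genes of the pathway. The arrays came from mice of the 129+Ter/SvJcl background that were 3 weeks old. The tissue was the superior mesenteric ganglion (SMG), part of the sympathetic nervous system in the belly, with 8 wild-type replicates and 8 replicates hemizygous for TH-MYCN (TH-MYCN+/-). Spheres, which are floating cell clusters, were grown from TH-MYCN hemizygotes and profiled either as primary spheres after 8 days of culture (8 cultures) or after being passaged 5 times (4 cultures, with 2 arrays for each). No spheres from wild-type mice were analysed here, so every sphere group carries the transgene. TH-MYCN is a human MYCN transgene under a tyrosine hydroxylase promoter, which drives it in catecholamine-producing cells and their precursors, and other cells of the ganglion are not its target. The labels do not say whether a replicate is 1 animal or a pool, nor whether spheres and ganglia share animals.

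KIT is a class III receptor tyrosine kinase of the cell surface, and its ligand, encoded by Kitl, is also called stem cell factor or steel factor. Kitl RNA is spliced into forms that stay on the membrane or are readily cut off as a soluble factor. Binding brings receptors together, and the signal passes through PI3 kinase, SRC-family kinases, RAS and STAT proteins. The pair is best known from mast cells, melanocytes, germ cells, blood stem cells and the interstitial cells of Cajal, in which KIT marks or maintains the cells. Ligand is made by endothelium, fibroblasts and other stromal cells in many tissues, and both have been studied in human neuroblastoma.

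Levels are log2 of the background-subtracted signal minus log2 of the 75th percentile of the same array, so that 0 means a signal equal to that percentile. A level of 1 probe is never set against that of another here. The 75th percentile signal was 522.7 to 988.6 in wild-type ganglia, 840.2 to 1358 in TH-MYCN ganglia, 464.1 to 563.8 in primary spheres and 322.7 to 538.9 in passaged spheres. Spots well above background made up 60.4 to 65.7%, 59.1 to 64.1%, 57.0 to 59.7% and 49.0 to 53.9% in the same order. Both probes were well above background on all 32 arrays. Slides 1 and 2 each held 4 wild-type and 4 TH-MYCN ganglia, and slides 3 and 4 each held 4 primary cultures and 1 array of each passaged culture. Ganglia and spheres therefore shared no slide, and slide and sample kind cannot be told apart in any comparison between them. All 8 sympathoadrenal markers were well above background on all arrays of every group. These are bulk samples, in which fewer cells of a type and less RNA per cell cannot be told apart.

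The regions in front of both genes are shown because the ligand and receptor levels were both lower in spheres than in wild-type ganglia, with no array overlap. The windows are those of RefSeq on GRCm38.p6, from 250 bases before to 50 after a start site, both on the plus strand. For Kit the 250 bases before the start (chr5:75574737-75574986) are printed. For Kitl the start site lies inside the gene as RefSeq bounds it, so only a stretch of 30 bases upstream of it (chr10:100015776-100015805), chosen to hold the marked motifs, is printed. Capitals mark GGGCGG, the GC box, and TATAAA, the TATA box, and the 2 GC boxes in the Kitl stretch overlap each other.
Kit: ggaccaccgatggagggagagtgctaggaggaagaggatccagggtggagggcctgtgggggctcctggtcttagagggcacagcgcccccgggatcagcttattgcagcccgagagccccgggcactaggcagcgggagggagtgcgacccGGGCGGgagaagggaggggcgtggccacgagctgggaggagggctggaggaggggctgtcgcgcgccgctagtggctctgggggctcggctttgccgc
Kitl: GGGCGGGCGGgagggagctgTATAAAaagc
Both strands of the whole 300-base windows were searched. GGGCGG occurred 1 time in the Kit window and 3 times in the Kitl window, and 35.7% of the 32851 windows of the table hold it. TATAAA occurred in the Kitl window, at position -25 from the start, but not in that of Kit, and 13.6% of all windows hold it. CACGTG, the E-box preferred by MYC and MAX and also by MITF, occurred in neither window and in 7.15% of all windows. The looser CANNTG, which includes it, occurred 1 time in each and in 72.3% of all. AGATAA, a motif of the GATA factors, occurred in neither window and in 11.2% of all. These matches describe letters in 1 window per gene and are no measure of binding.

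Kitl, the ligand, was highest in wild-type ganglia, lower in TH-MYCN ganglia, lower again in passaged spheres and lowest in primary spheres. In the 8 wild-type ganglia the log2 level ran from 0.44 over a median of 0.67 to 0.81, with a mean of 0.66 ± 0.13 (SD, n = 8). In the 8 TH-MYCN ganglia, replicates 1 to 8 lay at -1.08, -1.28, -0.57, 0.09, 0.09, -0.09, 0.34 and -0.64, with a mean of -0.39 ± 0.59 (SD, n = 8). All 8 TH-MYCN ganglia fell below the lowest wild-type ganglion, although the highest of them was within 0.10 of it, and they spread over 1.61 log2 units against 0.37 in wild type. The mean was lower by 2.07-fold, a log2 difference of -1.05 (SE 0.21), and within slides 1 and 2 the difference was -1.32 and -0.78.

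In spheres the ligand was at its lowest before passaging. The 8 primary sphere cultures ran from -3.78 over a median of -3.51 to -3.08, with a mean of -3.52 ± 0.24 (SD, n = 8), all below every TH-MYCN ganglion. The mean was 8.75-fold below that of TH-MYCN ganglia, a log2 difference of -3.13 (SE 0.23), and 18.1-fold below that of wild-type ganglia. The size of the first of these depended on the background correction, since normexp correction of the raw signals gave -2.10 in place of -3.13. After 5 passages, cultures 1 to 4 lay at -1.93, -2.16, -0.47 and -2.54, with a mean of -1.78 ± 0.91 (SD, n = 4). All 4 passaged cultures were above the highest primary culture, by at least 0.53, and the mean was 3.35-fold higher (log2 difference 1.74, SE 0.46, and 1.07 with normexp correction). The difference was 1.72 within slide 3 and 1.77 within slide 4. Culture 3 was within the range of the TH-MYCN ganglia, and the other 3 were below it. Its level is the one that sets the spread, and without it the difference from primary spheres was 1.31.

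Kit, the receptor, had overlapping levels in the ganglion groups and lower levels in spheres. The 8 wild-type ganglia ran from 0.66 over a median of 0.94 to 1.09, with a mean of 0.90 ± 0.16 (SD, n = 8). The 8 TH-MYCN ganglia ran from 0.71 over a median of 0.82 to 0.89, with a mean of 0.81 ± 0.07 (SD, n = 8), and all of them lay inside the wild-type range. The difference of -0.08 (SE 0.06) was smaller than the spread of the wild-type ganglia, and it was -0.08 within slide 1 and -0.08 within slide 2. Receptor levels thus overlapped fully in the same ganglia in which ligand levels did not overlap at all. The share of all genes without overlap between groups was not counted, so how common such a separation is stays unknown.

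Kit was lower in both kinds of sphere. The primary cultures ran from -0.92 over a median of -0.69 to -0.50, with a mean of -0.71 ± 0.13 (SD, n = 8), below every ganglion. This was 2.88-fold below TH-MYCN ganglia, a log2 difference of -1.53 (SE 0.05), and 3.05-fold below wild-type ganglia. Passaged cultures 1 to 4 lay at -0.31, -0.32, -0.23 and -0.24, with a mean of -0.28 ± 0.05 (SD, n = 4). All 4 were above the highest primary culture, by at least 0.19, and the mean was 1.35-fold higher (log2 difference 0.44, SE 0.05, with 0.37 on slide 3 and 0.50 on slide 4). They remained 2.13-fold below TH-MYCN ganglia, with no overlap. The order of the group means was the same for receptor and ligand, with the neighbours wild-type and TH-MYCN ganglia overlapping for Kit, and TH-MYCN ganglia and passaged spheres overlapping for Kitl.

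**Figure D1:**
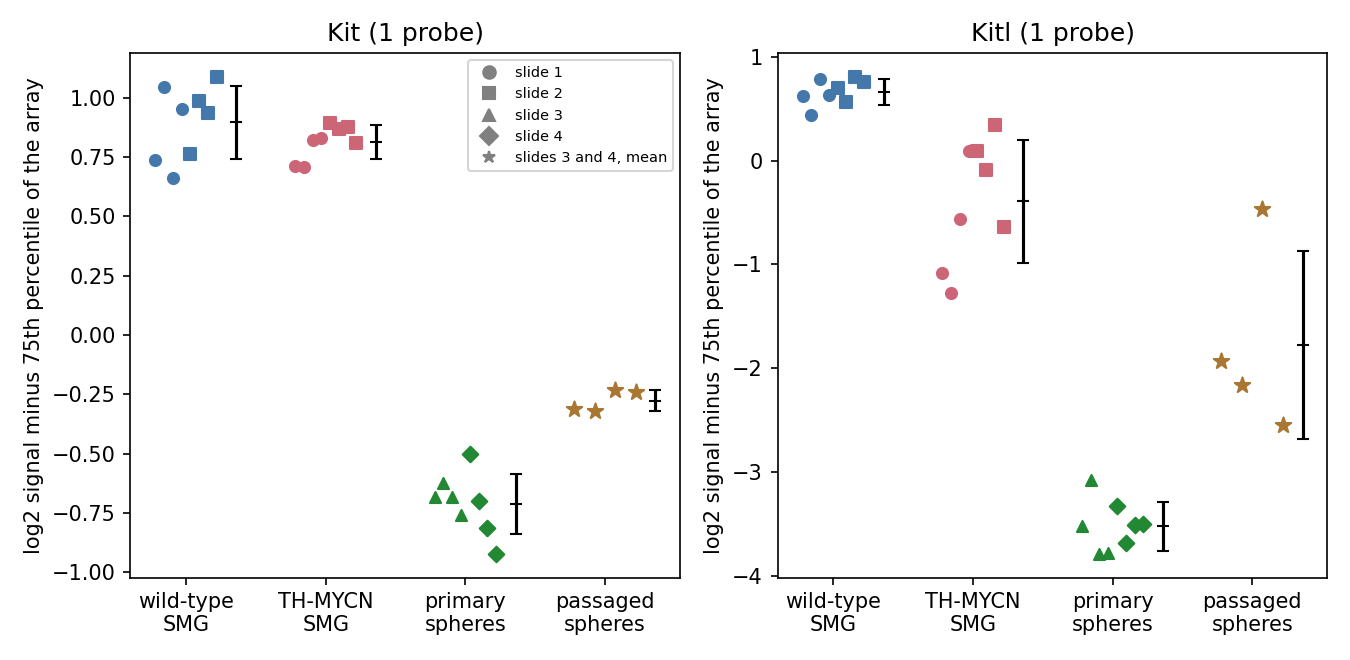
Log2 level of Kit (left) and Kitl (right) minus the array's 75th percentile, 1 point per sample, with marker shape for the slide and black bars for the mean ± SD of each group. Kit levels of the ganglion groups overlap and sphere levels lie below them, whereas Kitl levels of TH-MYCN ganglia all lie below the wild-type range and are widely spread.

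For scale, these shifts occurred among many others. Of 15839 genes tested between TH-MYCN and wild-type ganglia, 65.7% were called, 21.9% higher and 43.8% lower. Between primary spheres and TH-MYCN ganglia, 83.2% of 15641 genes were called, 50.2% higher and 32.9% lower. Between passaged and primary spheres, 11.7% of 14149 genes were called, 5.17% higher and 6.54% lower. A call here means an adjusted p under 0.05 from limma with Benjamini-Hochberg adjustment over all genes of the comparison. In the last comparison 44.1% of the calls were higher with the scaling used, and 30.3% with quantile normalization.

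The passaged cultures differed from one another in ligand and hardly in receptor. The 2 arrays of a culture differed by 0.06 to 0.20 for Kitl, whereas the cultures spanned 2.07 log2 units, or 4.21-fold. Culture 3 read -0.57 and -0.37 on its 2 arrays, far above culture 1 at -1.96 and -1.90, culture 2 at -2.13 and -2.20 and culture 4 at -2.63 and -2.46. Its arrays were the dimmest, with 75th percentiles of 322.7 and 362.3, beside 366.8 and 367.8 in culture 4 and 500.7 to 538.9 in cultures 1 and 2. Before scaling, its Kitl signal was 217.8 and 280.5, still the highest, against 138.1 and 137.1 in culture 1. For Kit the arrays of a culture differed by 0.02 to 0.15 and the cultures spanned 0.08, so the receptor did not separate the cultures beyond the array error. Other genes in which culture 3 stood at one end were looked for among the named pathway genes after its Kitl level had been seen. Dusp6, a phosphatase induced by ERK signalling that turns ERK off, was at 3.41, 3.20, 4.26 and 3.46 in cultures 1 to 4. Etv1, an ETS factor stabilised by KIT signalling in interstitial cells of Cajal, was at 2.87, 3.54, 4.86 and 2.82. Spry4, another feedback inhibitor of receptor tyrosine kinases, was at -1.27, -1.77, -0.57 and -1.86. Culture 3 was thus the highest of the 4 in these 3 genes, and it was the lowest in Gata2, at 1.46, 3.82, 0.87 and 2.52. Culture 3 was often at an end, as the highest of the 4 in 23 (41.1%) and the lowest in 16 (28.6%) of the 56 pathway genes above background on all passaged arrays, against 30.5% and 33.6% of 12081 genes of all kinds. With 4 cultures and a choice made after the values were seen, these orders are given without a test.

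**Figure D2:**
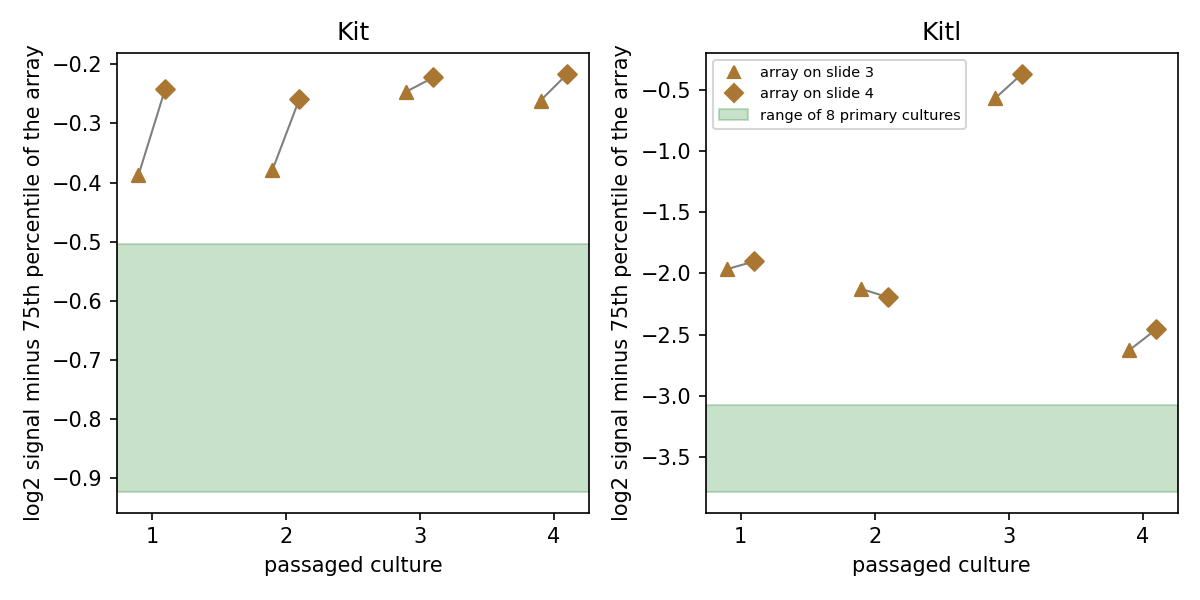
Log2 level of Kit (left) and Kitl (right) on the 2 arrays of each passaged culture, joined by a line, with the range of the 8 primary cultures as a green band. Kitl of culture 3 lies far above the other 3 cultures on both of its arrays, and Kit differs little between cultures.

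Genes whose products relay the KIT signal changed in both directions. Of 32 relay genes (adaptors, kinases and transcription factors) 32 were tested between TH-MYCN and wild-type ganglia, and 6 were higher and 12 lower, or 56.2% called against 65.7% of all genes, with a median difference of -0.13 against -0.22 over all genes tested. Pik3r1, the regulatory subunit of PI3 kinase that docks on phosphorylated KIT, stood at -0.91 to -0.40 in the 8 wild-type ganglia and at 0.71 to 2.43 in the 8 TH-MYCN ganglia, with no overlap. It rose by 2.47 on the log2 scale (SE 0.21, adjusted p = 5.31e-08). Vav1, a guanine nucleotide exchange factor mostly of blood cells, rose by 0.95 (SE 0.15, adjusted p = 6.04e-05). Stat5a, a transcription factor that KIT activates, fell by 0.96 (SE 0.17, adjusted p = 0.000175).

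Between primary spheres and TH-MYCN ganglia, 16 of the 32 relay genes were higher and 11 lower, with a median of 0.16 against 0.27 over all genes. That was 84.4% called, against 83.2% of all genes. Genes of blood cells were among those lower. The Vav1 probe, at -0.56 to 0.29 in TH-MYCN ganglia, was not well above background on any primary sphere array and was at least 42.0-fold lower (adjusted p = 8.34e-19). Lyn, an SRC-family kinase of mast cells and other myeloid cells, was likewise not well above background in spheres and at least 2.31-fold lower (adjusted p = 3.5e-13), a call that was lost with normexp correction, at -0.22 and an adjusted p of 0.0521. A bound of this kind compares the brighter group's mean with the weakest signal that still counts as above background on the dimmer arrays. Stat5a fell by a further 2.77 (SE 0.20, adjusted p = 1.49e-09). Macrophage markers moved with these genes. All 6 markers on the array were well above background in both ganglion groups, with a summed log2 level of 3.26 to 4.03 in wild-type and 4.12 to 5.27 in TH-MYCN ganglia, against -3.58 to -2.61 in primary spheres, and their part in the changes of Vav1 and Lyn was not tested.

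After passaging, 2 of 29 relay genes tested were higher and 2 lower, or 13.8% called against 11.7% of all genes. Mapk3, which encodes ERK1, fell by 0.32 (SE 0.09, adjusted p = 0.033) and Shc1, an adaptor, by 0.30 (SE 0.08, adjusted p = 0.0425). Map2k2, which encodes MEK2, rose by 0.26 (SE 0.06, adjusted p = 0.0251). None of these 3 calls held in every alternative, and each was lost without passaged culture 2 and without passaged culture 4.

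Of the negative regulators, phosphatases, ubiquitin ligases and feedback proteins, 18 of 18 were tested in each comparison. In TH-MYCN ganglia 3 were higher and 8 lower than in wild type, with a median of -0.36 against -0.22 over all genes. That was 61.1% called, against 65.7% of all genes. Sh2b2, an adaptor that links KIT to the ubiquitin ligase CBL, rose by 1.16 (SE 0.17, adjusted p = 2.33e-05). Spry4 fell by 1.31 (SE 0.34, adjusted p = 0.00287), a call lost within slide 1, and Dusp6 fell by 0.88 (SE 0.13, adjusted p = 2.51e-05). In primary spheres 12 were higher and 4 lower than in TH-MYCN ganglia, with a median of 0.52 against 0.27 over all genes. The share called was 88.9%, against 83.2% of all genes. Dusp4, an ERK phosphatase, stood at -5.56 to -4.01 in the ganglia and at -0.51 to -0.20 in primary spheres, and rose by 4.08 (SE 0.17, adjusted p = 1.69e-12). Ptpn6, which encodes SHP-1, a phosphatase of blood cells that binds KIT, fell by 3.65 (SE 0.14, adjusted p = 3.52e-13). Inpp5d, which encodes SHIP1 and removes the product of PI3 kinase, fell by 2.46 (SE 0.12, adjusted p = 1.65e-11). After passaging none was higher and 3 were lower, or 16.7% called against 11.7% of all genes. Among them Inpp5d fell by 1.21 (SE 0.24, adjusted p = 0.00908) and Dok2, an adaptor that dampens RAS signalling, by 0.29 (SE 0.07, adjusted p = 0.017). Both calls were lost with normexp correction, where the differences were -0.41 and -0.14, and that of Dok2 also without passaged culture 2 (-0.25) or 4 (-0.28).

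The proteases that cut Kit ligand or KIT from the cell surface were few. Of 3 tested between the ganglion groups, 2 were lower, or 66.7% called against 65.7% of all genes. Cma1, mast cell chymase, fell by 2.36 (SE 0.29, adjusted p = 5.36e-06) and was well above background on 5 of 8 TH-MYCN arrays and 8 of 8 wild-type arrays. Adam10, a sheddase of many surface proteins, fell by 0.26 (SE 0.07, adjusted p = 0.00342), a call lost with normexp correction and within slide 2. Adam17, the sheddase best known for KIT, was between -2.81 and -2.69 in all 4 group means and was called in no comparison.

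Transcription factors known to act on the Kit gene were 1 higher and 4 lower of 11 tested between the ganglion groups, 4 higher and 7 lower of 11 in primary spheres, and 2 higher and 1 lower of 9 after passaging. These were 45.5%, 100% and 33.3% called, against 65.7%, 83.2% and 11.7% of all genes. Myb, a regulator of blood progenitors, was not well above background on any wild-type array, lay between -1.85 and 0.38 in TH-MYCN ganglia and was at least 37.5-fold higher there (adjusted p = 2.5e-09). Mitf, the melanocyte and mast cell factor, ran from 1.28 to 2.04 in wild-type ganglia, from 0.36 to 1.44 in TH-MYCN ganglia and from -2.84 to -1.80 in primary spheres. It fell by 0.87 (SE 0.17, adjusted p = 0.000297) between the ganglion groups and by 3.15 (SE 0.19, adjusted p = 1.31e-10) from TH-MYCN ganglia to primary spheres. Etv1 fell by 1.17 (SE 0.21, adjusted p = 0.000145) in TH-MYCN ganglia. Tal1 and Runx1, both of blood cells and endothelium, were at least 4.58-fold and at least 3.12-fold lower in primary spheres, where their probes were not well above background (adjusted p = 7.03e-10 and 6.3e-08).

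After passaging, 3 factors changed. Gata2, which acts in blood progenitors, mast cells and sympathetic neuroblasts, rose by 1.83 (SE 0.45, adjusted p = 0.0241) from a primary sphere range of -0.32 to 1.16 to the 4 culture values given above, and the lowest of these lay inside that range. Its call was lost without passaged culture 2, at 1.28, and without culture 4, at 1.71. Myb rose by 0.53 (SE 0.08, adjusted p = 0.00192), with all 4 cultures (1.17 to 1.53) above all primary cultures (0.74 to 0.98), a call lost when all 4 groups were fitted together. Lmo2, a partner of TAL1, fell by 1.62 (SE 0.34, adjusted p = 0.0128), with cultures at -1.90, -4.50, -3.06 and -3.35. The calls of Lmo2 and Gata2 were lost within slide 3 and within slide 4 alone, at -1.58 and -1.66 for Lmo2 and 1.62 and 2.03 for Gata2. Myb was therefore the one of these 3 factors whose passaged and primary values, like those of Kit and Kitl, separated upwards without overlap.

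The other class III receptors moved down with Kit in spheres, and in TH-MYCN ganglia most fell while Kit overlapped. Between the ganglion groups 1 of 4 was higher and 3 lower, so all 4 were called, against 65.7% of all genes. Pdgfra, a receptor of fibroblasts and mesenchyme, ran from -0.29 to 0.49 in wild-type and from -1.11 to -0.36 in TH-MYCN ganglia and fell by 0.97 (SE 0.13, adjusted p = 1.4e-05). Flt3, a receptor of blood progenitors, fell by 0.86 (SE 0.15, adjusted p = 0.000172), and Pdgfrb, a receptor of pericytes, fell by 0.72 (SE 0.10, adjusted p = 1.48e-05). Csf1r, the macrophage receptor, rose by 0.21 (SE 0.07, adjusted p = 0.0224), but 1 of its other 2 probes gave -0.48, and the call was lost within slide 1 and when all 4 groups were fitted together.

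In primary spheres all 4 were lower than in TH-MYCN ganglia, with a median of -3.18 against 0.27 over all genes. Of all genes tested, 32.9% were called lower. Pdgfra was not well above background on any primary array and was at least 23.3-fold lower (adjusted p = 5.18e-18). Flt3 was also not well above background and was at least 3.18-fold lower (adjusted p = 3.45e-08), a call lost with normexp correction (-0.11, adjusted p = 0.278). Csf1r fell by 3.59 (SE 0.13, adjusted p = 1.36e-13), with 1 other probe at -4.01 and 1 that went the other way, at 0.57. Pdgfrb fell by 2.35 (SE 0.23, adjusted p = 6.18e-08). Kit was well above background on every primary sphere array, whereas Pdgfra and Flt3 were on none. After passaging, Pdgfrb was not well above background on any array and was at least 2.87-fold lower than in primary spheres (adjusted p = 0.00356), the opposite direction to Kit, and this call was lost with normexp correction (-0.48).

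The ligands of these receptors were lower alongside Kitl. Between the ganglion groups 5 of 6 tested fell, with a median of -0.62 against -0.22 over all genes, of which 43.8% were called lower. Pdgfa fell by 0.98 (SE 0.18, adjusted p = 0.000177), Flt3l by 0.81 (SE 0.15, adjusted p = 0.000221) and Csf1 by 0.69 (SE 0.16, adjusted p = 0.0016). Il34, the second ligand of CSF1R, fell by 0.54 (SE 0.11, adjusted p = 0.000491). Pdgfb fell by 0.51 (SE 0.19, adjusted p = 0.0241), a call lost within slide 1 and without wild-type replicate 7 or 8 or TH-MYCN replicate 2 (-0.44, -0.44 and -0.43), and Pdgfc differed by 0.20 (adjusted p = 0.14).

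From TH-MYCN ganglia to primary spheres all 6 ligands fell, with a median of -2.67 against 0.27 over all genes, of which 32.9% were called lower. The largest changes were those of Pdgfb, by 4.32 (SE 0.17, adjusted p = 5.77e-13), Il34, by 4.24 (SE 0.22, adjusted p = 2.07e-11), and Flt3l, by 3.37 (SE 0.15, adjusted p = 2.12e-12). Pdgfc, Csf1 and Pdgfa fell by 1.97, 1.61 and 1.02, with adjusted p-values of 3e-10, 2.69e-08 and 4.08e-05. The 2 other probes of Csf1 gave larger differences, -2.88 and -2.96. After passaging none of the 6 was called, against 11.7% of all genes. Differences ran from -0.92 for Il34 (adjusted p = 0.0657) to 0.36 for Csf1 (adjusted p = 0.0641), and both were called in some alternatives. Csf1 was called with slide as a block (adjusted p = 0.0406) and with no filter on dim probes (0.0445). Il34 was called with quantile normalization (adjusted p = 0.0445) and with all 4 groups in 1 fit (0.00867). Kitl was higher in every passaged culture than in any primary one. The difference between Kitl and these ligands was not tested.

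Over all 77 pathway genes, 74 were tested between the ganglion groups, and 11 were higher and 34 lower, so that 60.8% were called. From TH-MYCN ganglia to primary spheres 32 of 74 were higher and 33 lower, or 87.8% called. After passaging 4 of 66 were higher and 7 lower, or 16.7% called. Against the 65.7%, 83.2% and 11.7% of all genes, these shares are near the background. In the last comparison the counts depended on single cultures, with 1 higher and 4 lower without passaged culture 2, 1 higher and 3 lower without passaged culture 4, and 4 lower without primary culture 4 or without primary culture 7.

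**Figure D3:**
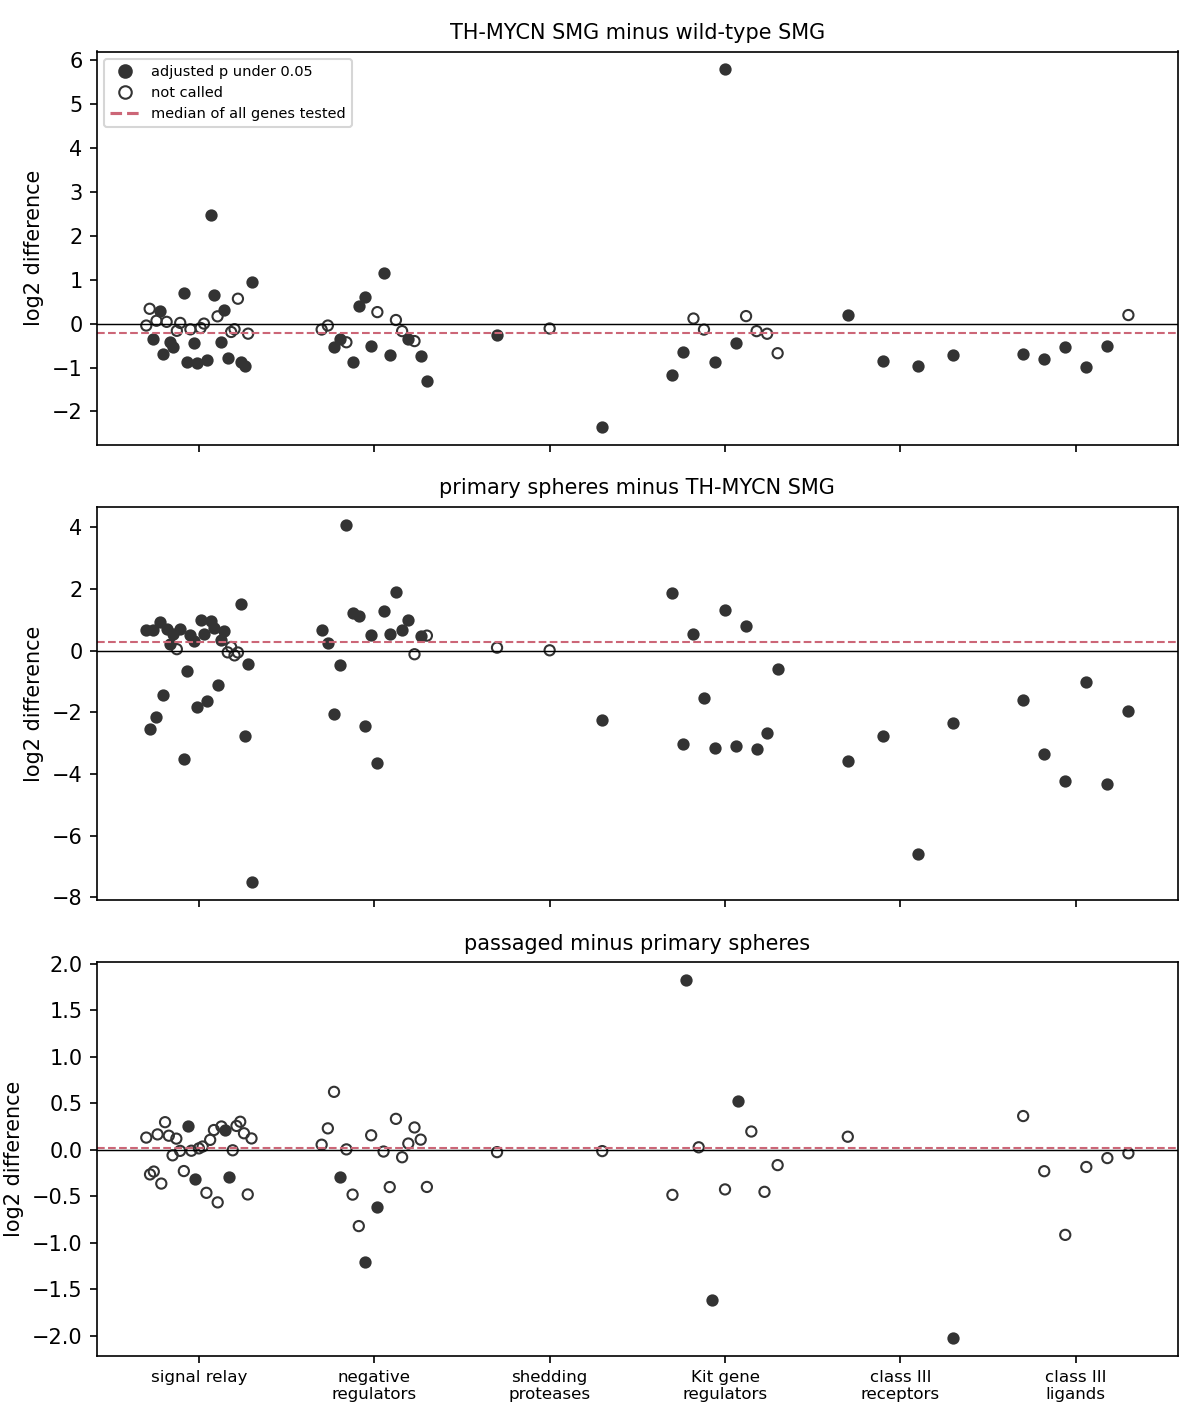
Log2 difference of each tested pathway gene, by list, in the 3 comparisons, with filled points for genes at an adjusted p under 0.05, open points for the others and a dashed line for the median of all genes tested. Receptors and ligands of the class III family lie below 0 in primary spheres, while the relay genes and negative regulators lie on both sides.

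Markers of the cells that commonly carry KIT or make its ligand were followed beside the pair. Of 9 mast cell markers on the array, 4 (Cpa3, Mcpt4, Tpsb2 and Hdc) were well above background on all wild-type and all TH-MYCN arrays. The summed log2 level of all 9 was 0.60 to 2.58 in wild-type ganglia, -0.50 to 0.21 in TH-MYCN ganglia, -2.15 to -1.15 in primary and -1.89 to -1.05 in passaged spheres. Mcpt4, a mast cell chymase, fell by 2.45 (SE 0.26, adjusted p = 1.11e-06) and Cpa3, the mast cell carboxypeptidase, by 2.32 (SE 0.28, adjusted p = 4.22e-06) in TH-MYCN ganglia, in which Kit levels overlapped those of wild type. Of 6 mast cell markers tested there, 5 fell and 1 rose, against 43.8% lower and 21.9% higher of all genes. The 1 that rose was Hpgds, a prostaglandin D synthase, by 1.86 (SE 0.31, adjusted p = 9.31e-05). Cpa3, Mcpt4, Cma1, Hpgds, Ms4a2 and Mrgprb1 were not well above background on any sphere array, while Kit was above it on all of them. Ms4a2 and Mrgprb1 were not well above background on any TH-MYCN ganglion array either. Tpsb2 did not fall in spheres, at means of -2.345 in TH-MYCN ganglia, -2.18 in primary and -2.04 in passaged spheres. It was the 1 mast cell marker well above background on all passaged arrays, and it made up much of the sphere sums. Of the 7 melanocyte markers, Dct, Tyrp1, Pmel and Slc45a2 were not well above background on any sphere array, and Slc45a2 on no ganglion array either. Mlana and Tyr went the other way in primary spheres and rose from TH-MYCN ganglia by 1.55 (SE 0.23, adjusted p = 1.02e-05) and 0.75 (SE 0.18, adjusted p = 0.00134). The summed melanocyte level was -1.41 to -0.78 in wild-type and -1.60 to -0.73 in TH-MYCN ganglia, -1.66 to -1.09 in primary and -2.36 to -1.81 in passaged spheres. The 5 markers of interstitial cells of Cajal, which include Etv1, summed to 3.26 to 3.97 and 1.95 to 3.28 in the ganglia and to 3.80 to 4.44 and 2.91 to 4.89 in spheres. Etv1, at a mean of 4.00 in primary spheres, made up most of that sum, and the mean log2 level of the 5 markers ran the other way, from -1.41 to -0.71 in TH-MYCN ganglia and from -3.05 to -1.44 in primary spheres. Prkcq was not well above background on any sphere array.

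Sums of stromal markers were lower in spheres than in ganglia. The summed level of 8 endothelial markers was 5.08 to 5.70 in wild-type ganglia, 4.12 to 5.12 in TH-MYCN ganglia, 3.61 to 4.27 in primary and 3.53 to 4.06 in passaged spheres. Cdh5 and Cldn5, which hold endothelial cells together, were not well above background on any sphere array, whereas Kdr and Egfl7 were, and Kdr rose by 1.34 (SE 0.21, adjusted p = 1.89e-05) in primary spheres. Fibroblast markers summed to 8.15 to 8.71, 7.49 to 7.79, 1.78 to 3.72 and 2.58 to 2.75 in the same order of groups, and glial markers to 6.87 to 7.16, 5.77 to 6.34, 1.09 to 3.51 and 0.52 to 0.70. Smooth muscle and pericyte markers summed to 2.77 to 5.37, 1.97 to 2.74, 0.19 to 2.13 and 0.79 to 1.37. In primary spheres the glial sum was 2.55 to 3.51 on slide 3 and 1.09 to 1.32 on slide 4. The fibroblast sum of primary spheres split likewise, at 3.09 to 3.72 and 1.78 to 2.28, while their Kitl means were -3.54 and -3.50. The adrenal cortex sum, a check on neighbouring tissue, was -2.50 to -1.11 in wild-type and -2.37 to 1.06 in TH-MYCN ganglia, with medians of -1.75 and -2.11. The 1.06 was that of TH-MYCN replicate 1, 1 of the 2 lowest in Kitl, and the other TH-MYCN replicates lay at -2.37 to -1.83. The summed levels of endothelial, fibroblast and pericyte markers of the passaged spheres overlapped those of the primary spheres, and the glial sum was lower in them, while Kitl did not overlap and was higher. In primary spheres Egfl7, Fbln1 and Tagln, at means of 3.26, 1.86 and 0.82, made up a large part of the endothelial, fibroblast and pericyte sums. By mean log2 level the smooth muscle and pericyte markers did not overlap, at -5.14 to -4.82 in passaged and -4.80 to -3.46 in primary spheres. Of the 6 markers 3 were tested there, and 2 were called lower after passaging, against 6.54% called lower of all genes. The part of these cell types in the Kit and Kitl levels was not tested.

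Among the 8 TH-MYCN ganglia, the spread of Kitl ran along that of several sums, and by Pearson's r most closely along the endothelial sum. This relation was looked for after the spread had been seen, as 1 of 13 relations of Kitl with marker sums and with a sum of 8 proliferation genes (Mki67, Top2a, Ccnb1, Cdk1, Bub1, Aurkb, Plk1 and Kif11). Replicates 1 and 2, lowest in Kitl, had endothelial sums of 4.12 and 4.14, and replicates 4, 5 and 7, highest in Kitl, had sums of 5.06, 5.12 and 5.06. Egfl7, at a mean of 4.44 in TH-MYCN ganglia, made up most of these sums. The mean log2 level of the 8 markers was -1.23 and -1.15 in replicates 1 and 2, and -0.58, -0.49 and -0.48 in replicates 4, 5 and 7. For the sum, Pearson's r with Kitl was 0.971 and Spearman's rho 0.905 (n = 8). Both are given as a description with no test, since Kitl levels served to choose the pair. Without the 2 samples farthest from the median endothelial sum r was 0.929, and with each value centred on its slide it was 0.963.

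The proliferation sum ran the other way, from 4.52 in replicate 4 to 6.58 in replicate 2. Its r with Kitl was -0.775 and its rho -0.905 (n = 8), with r at -0.932 without the 2 farthest samples and -0.919 centred on slides. The glial sum had an r of 0.820 and a rho of 0.857, with r at 0.691 without the 2 farthest samples and 0.905 centred on slides. The sum of the interstitial cell markers, which Etv1 dominates, had an r of 0.808 and a rho of 0.905. That of the macrophage markers had an r of -0.771 and a rho of -0.905. Centred on slides, r was 0.961 for the interstitial cell sum and -0.955 for the macrophage sum. The relation of Kitl to the endothelial sum was thus not particular to that sum. The sympathoadrenal sum had an r of 0.688. The other 7 relations had an r between -0.505 (adrenal cortex) and 0.513 (fibroblasts), with -0.030 for the mast cell sum. The mast cell r was unsteady, at -0.805 without the 2 farthest samples and 0.349 centred on slides. That of the lymphocyte sum moved likewise, from -0.411 to -0.835 and 0.063 in the same settings. The sums come from the same 8 arrays and share their scaling, so the relations are not independent of each other, and their part in the Kitl level was not tested.

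**Figure D4:**
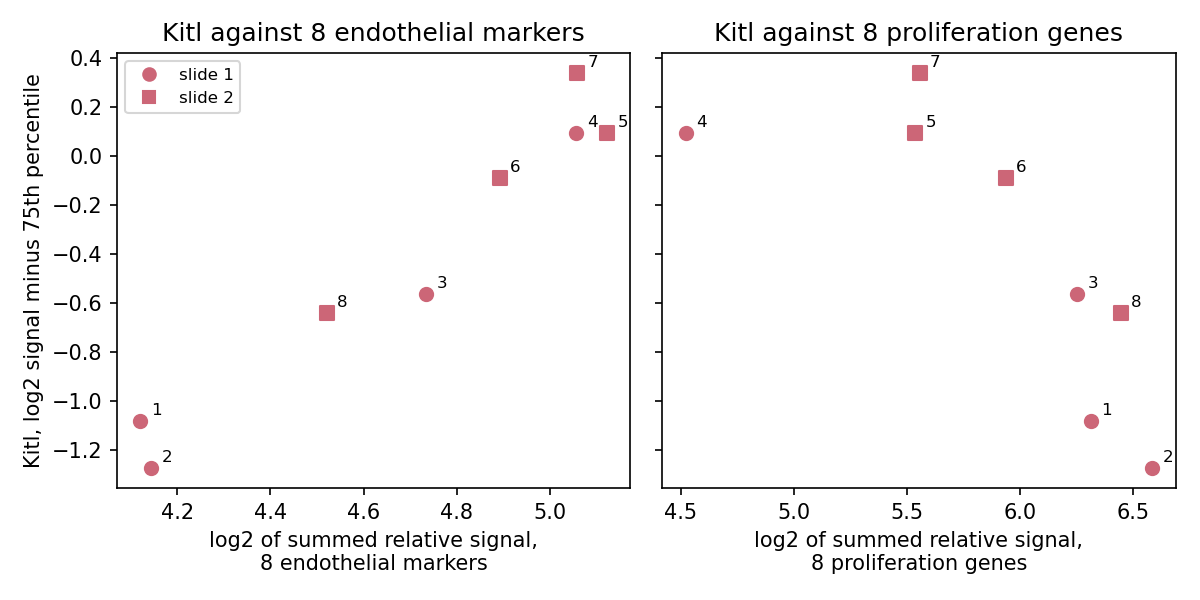
Kitl level of the 8 TH-MYCN ganglia, numbered by replicate and marked by slide, against the log2 summed level of 8 endothelial markers (left) and of 8 proliferation genes (right). Kitl is higher where the endothelial sum is higher and lower where the proliferation sum is higher, on both slides.

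The genes whose pattern was most like that of each member were found by Pearson's r over the 28 samples among 16076 genes, as a description. Samples of a group share their kind and slides, so a high r mostly restates the group means. The 5 nearest to Kit were Cyp4f15 (r = 0.989), Naip6 (0.986), Lfng (0.985), Sox18 (0.984) and Cyyr1 (0.984), each well above background on all 16 ganglion arrays and on none of the sphere arrays. The 5 nearest to Kitl were Psd3 (r = 0.974), Adgrd1 (0.970), Gria1 (0.970), Plscr5 (0.970) and Mr1 (0.968), of which only Psd3 and Gria1 were well above background on all 32 arrays. Among the 11758 genes above background on every array, the 5 nearest to Kit were Ndrg1 (0.979), Oasl1 (0.976), Fn1 (0.976), Lrrtm1 (0.975) and Lifr (0.975). Those nearest to Kitl were then Psd3, Gria1, Slc35f3 (0.963), Diaph2 (0.962) and Rassf2 (0.962). With each group centred on its own mean, r with Kitl was 0.771 for Psd3, 0.580 for Gria1 and 0.802 for Slc35f3. These genes had been picked by their r over the same samples. By centred r, Psd3 ranked 58 and Gria1 820 among the 16076 genes. Etv1, with an r of -0.409 over all samples, had a centred r of 0.746. Kit and Kitl themselves had an r of 0.937 over the 28 samples and of 0.268 once each group was centred.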

How the data were processed

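RNA of 28 samples was labelled with Cy3 and read on 32 one-colour Agilent arrays. The deposited intensity values are background-subtracted processed signals of Feature Extraction 11.5.1.1, per the file headers. The authors also deposited a table of log2 values, which matched the log2 levels used here, less a constant for each probe, within 0.05 for 99.9% of values. Its scale is therefore log2, its direction the same, and what it was centred on stays unknown; its column medians ran from -0.4826 to 0.5055. It served as an alternative.

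Outlier spots (109 to 211 an array) were left out, spots of a probe averaged, and each array scaled by its 75th percentile. For passaged spheres the mean of a culture's 2 arrays was used. Of 55681 probes, 27235 matched a RefSeq transcript of 20660 genes. A gene was tested by its brightest probe among those well above background in at least 4 samples of the comparison, with limma 3.58.1 in R 4.3.3 on the 2 groups compared, two-sided, and a fit tested on simulated data. Of 22 other probes of the named genes, 2 went the other way, both of Csf1r. The genes named are, from each list, up to 3 called members with the largest difference, provided that the probe passed background on each array of the group with more signal, plus all class III receptors and ligands tested; others were chosen after their values were seen. The members and the gene lists were chosen with earlier results of these data known. Shared replicate numbers were not used to pair samples, and whether they link samples is not known. Labels give the RNA input as either of a pair of amounts without tying it to samples, and their extraction text speaks of spheres only. The 2 spots of the Kit probe differed by a median of 0.07 (at most 0.22), and Kitl had 1 spot, so the number of arrays limits precision. The probes' sequences and the splice forms they detect were not analysed here. Alternatives were normexp background correction (offset 50), quantile normalization, median centring, the authors' table, no filter on dim probes, all 4 groups in 1 fit, slide and replicate blocks, single slides and leaving out each replicate.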

Additional observations from a re-analysis of the deposited data

Results flagged for a closer look

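In 5 of 73 sets of values, each for 1 named pathway gene in 1 group, a single sample lay apart from the rest of its group by Dixon's test, and chance gives about 1 in 20. Passaged culture 3 had an Inpp5d level of -2.95, against -4.22 to -4.04 in the other 3 cultures, the same culture that was highest in Kitl. Passaged culture 2 had a Map2k2 level of 3.44, against 3.30 to 3.32. TH-MYCN ganglion 4 was lowest in Ptpn6, at -1.85 against -1.23 to -0.84, and in Vav1, at -0.56 against -0.08 to 0.29, and it was also lowest in the proliferation sum. TH-MYCN ganglion 1 had a Tal1 level of -3.76, against -3.26 to -2.83.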

How the results depend on the processing

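Kit and Kitl kept the direction of each of their 3 main differences under every alternative run. The sizes that moved by more than the replicate spread were the Kit difference between primary spheres and TH-MYCN ganglia, at -1.40 with normexp correction and -1.40 with median centring, and the Kitl differences with normexp correction, at -2.10 for primary spheres against TH-MYCN ganglia and 1.07 for passaged against primary spheres. Leaving out 1 replicate at a time gave -0.11 to -0.05, -1.56 to -1.50 and 0.40 to 0.46 for Kit in the 3 comparisons, and -1.16 to -0.93, -3.26 to -3.02 and 1.31 to 2.00 for Kitl. Within slide 1 alone, 7 pathway genes were higher and 22 lower between the ganglion groups. After passaging, the counts of 4 higher and 7 lower became 2 and 3 with normexp correction, 2 and 3 within slide 3, and 2 and 3 within slide 4; higher genes were 11 with no filter on dim probes and 1 with all 4 groups in 1 fit. Leaving out 1 replicate gave 1 to 6 higher and 3 to 10 lower. The cause was not tested. Replicate numbers were not taken to pair the samples, since not every pair's deviations correlated above 0.1: they did in 7 of 8 ganglion pairs (median 0.282), 1 of 8 pairs of primary spheres and ganglia, and 2 of 4 sphere pairs, where all 4 numbers correlated best with their own. Between other numbers the median was -0.055 for the ganglia and -0.020 for the sphere groups, so whether the numbers link samples was not settled. With the replicate block the passaged comparison gave 1 higher and 3 lower. The calls of Gata2, Lmo2, Inpp5d, Dok2, Mapk3, Shc1 and Map2k2 were then lost. Each gene of the pair had 1 probe, so another choice of probe was not run. Passaged arrays, the dimmest, had the fewest spots above background, which limits what can be tested in them.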
